A study of Homo sapiens with 18 samples.

Results

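The data described here are the interaction of TRIM24 knockdown with androgen in LNCaP cells, that is, the difference that TRIM24 siRNA made with hormone minus the difference it made without hormone. It was computed for each gene as siTRIM24 minus siControl with DHT, less siTRIM24 minus siControl with vehicle, from 12 of the 18 arrays of the series. LNCaP is a human prostate cancer line, derived from a lymph node metastasis, that responds to androgen. The cells of all 4 groups were starved of hormone for 48 h in medium with charcoal-treated serum. The 4 groups of 3 arrays were LNCaP with TRIM24 siRNA and DHT, LNCaP with control siRNA and DHT, LNCaP with TRIM24 siRNA and vehicle, and LNCaP with control siRNA and vehicle. Transfection lasted 48 h, and treatment with 10 nM dihydrotestosterone (DHT) or ethanol vehicle lasted 24 h. The other 6 arrays, of the LNCaP-abl line, were used only in an alternative fit. An siRNA lowers the target without removing it, and 1 line carries all results. Whether the 3 replicates of a group were grown separately is not stated in the labels. The p-values therefore reflect the scatter among these 12 arrays and may reflect technical scatter alone.

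TRIM24 is a chromatin reader with a bromodomain and a PHD finger, a RING-type ubiquitin ligase and a cofactor of nuclear receptors, among them the androgen receptor. DHT binds the androgen receptor, which then enters the nucleus and occupies enhancers, raising prostate genes such as KLK3, the gene of prostate-specific antigen, and lowering others such as the UGT2B enzymes that inactivate androgens. An interaction asks whether the effect of losing the cofactor depends on the hormone. A positive interaction means that the siTRIM24 minus siControl difference was higher with DHT than with vehicle, and, equally, that the DHT response was higher in siTRIM24 than in siControl cells. A negative one means the reverse. An interaction does not say which of the 4 groups differed, so the genes that the results turn on are given with their values in all of them.

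All values are log2 expression values. Array medians lay between 5.83 and 5.89, the correlation between arrays of a group was 0.997 to 0.998 over the probe sets, and precision is limited by there being 3 arrays in each group. Of 7 measured luminal prostate markers, KLK3, HOXB13, KRT8, KRT18, FOLH1 and TMPRSS2 had means above 5.87, the median of the table, in all 4 groups, and KLK2 in the 2 DHT groups. Among basal markers KRT5, KRT14, KRT15 and DKK3 were below it in all 4 groups and ITGB4 above it. Among neuroendocrine markers CHGA, CHGB, SCG3 and INSM1 were below it and SYP and ENO2 above it. Among leukocyte markers PTPRC, CD14 and LYZ were below it, CD74 above it and CD3E above it in 3 groups, and among endothelial markers CDH5, KDR and TEK were below it and PECAM1 and VWF above it. Of 8 fibroblast markers 4 reached it in some group. The summed fibroblast signal spanned 8.73 to 8.78 in siTRIM24 and 9.26 to 9.37 in siControl cells with DHT, and 9.06 to 9.10 in siTRIM24 and 9.41 to 9.48 in siControl cells with vehicle. COL1A1, a collagen gene, was the 1 fibroblast marker called for the interaction, at -0.29, and the part of these genes in the results was not tested. The log2 signal at the 3′ over the 5′ end of the ACTB control probe sets, a sign of RNA integrity, was 2.19 ± 0.07 in siTRIM24 and 1.85 ± 0.09 in siControl cells with DHT, and 2.05 ± 0.07 in siTRIM24 and 1.87 ± 0.06 in siControl cells with vehicle (SD, n = 3). Its own interaction was 0.16, and that of the GAPDH probe sets 0.01. The part of RNA integrity in the results below was not tested beyond a fit with the mean of the ACTB and GAPDH signals as a covariate. That mean was 1.41 in siTRIM24 and 1.20 in siControl cells with DHT, and 1.32 and 1.20 with vehicle. It was higher after knockdown in both states, so the covariate overlaps with knockdown.

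TRIM24 itself was lower with its siRNA in both hormone states. It read 8.09, 8.04 and 7.89 in siTRIM24 and 10.12, 10.13 and 10.17 in siControl cells with DHT, and 7.73, 7.70 and 7.69 in siTRIM24 and 9.69, 9.71 and 9.71 in siControl cells with vehicle. Every knockdown array was below every control array in its hormone state. The knockdown difference was -2.14 with DHT and -1.99 with vehicle. Their difference, the interaction, was -0.14 ± 0.06 (SE, n = 3 arrays per group) and did not pass (adjusted p = 0.17 in limma). The mean of the 4 TRIM24 probe sets gave -0.34 (adjusted p = 0.006), with a dim probe set at -0.90. Of the TIF1 family to which TRIM24 belongs, TRIM33, TRIM28 and TRIM66 were at -0.13, 0.11 and 0.14, and none of the 4 members passed in limma (2 at an unadjusted p under 0.05).

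Across the transcriptome the interaction was widespread and small. Of 13213 genes tested 1530 passed an adjusted p of 0.05, or 11.6%, with 744 positive (5.63%) and 786 negative (5.95%). Genes that passed are described below as called positive or negative. A positive interaction of at least 0.5 was called in 80 genes and a negative one of that size in 84, and 6 and 4 reached 1. The median size of a called interaction was 0.28, with quartiles of 0.23 and 0.38, against a median SE of 0.07. Over all tested genes the median interaction was -0.01, and the 2 knockdown differences correlated at 0.78 across genes, which are not independent. Knockdown thus made differences of like direction with and without hormone in most genes, as the plot of both differences shows.

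The called genes took 3 forms. In 686 of them, or 44.8%, the mean knockdown difference had opposite signs with DHT and with vehicle, against 30.1% of all tested genes. In 475 (31.0%, against 35.7% of all tested genes) it had 1 sign and was larger with DHT, and in 369 (24.1%, against 34.3%) it was larger with vehicle. A call selects for a gap between the 2 differences, so a higher share of opposite signs among called genes is partly built in. In 250 called genes, 1.89% of those tested, the signs differed array by array, with all 3 knockdown arrays on one side of all 3 control arrays with DHT and on the other side with vehicle. The knockdown arrays were above with DHT and below with vehicle in 131 of these, and below with DHT and above with vehicle in 119. A group mean below 5.87, where differences are compressed, occurred in 60 called genes.

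**Figure D1:**
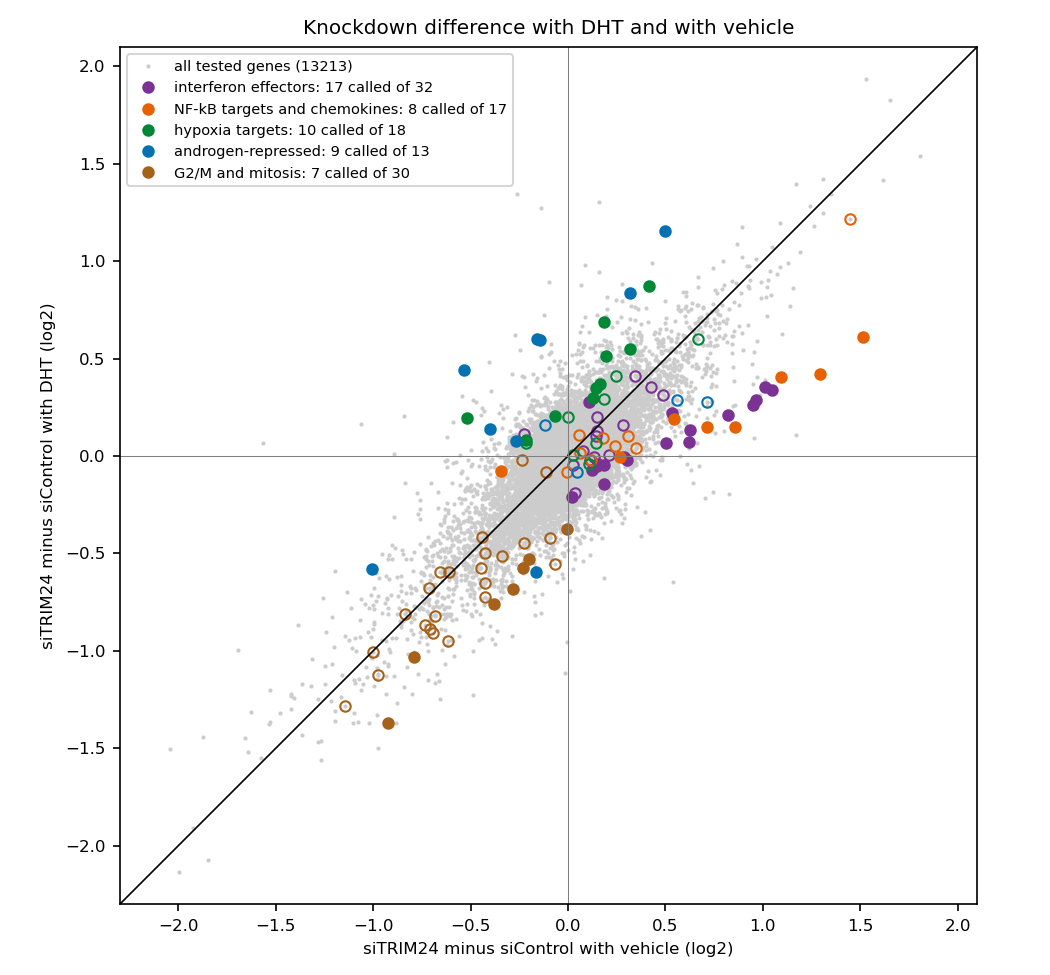
Each point is 1 of 13213 tested genes, with the siTRIM24 minus siControl log2 difference with DHT (y axis) against that with vehicle (x axis). The vertical distance from the diagonal is the interaction, filled points passed and open coloured points did not, and the interferon effectors (17 of 32 called) lie mostly below the diagonal while the hypoxia targets (10 of 18 called) lie mostly above it.

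Many antiviral genes of the interferon response had a negative interaction. Cells sense viral RNA with RIG-I-like receptors, which switch on type I and III interferon genes. Secreted interferons act through their receptors and JAK kinases on STAT and IRF factors, which bind a promoter element, the interferon-stimulated response element (ISRE), and raise antiviral effector genes. Of 32 tested effectors 16 were called negative and 1 positive, against 5.95% and 5.63% of all tested genes, and their median was -0.20 against -0.01 over all genes. In IFIT1, IFIT3, HERC5 and RSAD2 the knockdown difference was positive in both hormone states and larger with vehicle.

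The upstream 250 bases of 5 genes are printed here because they show the ISRE-like element that several called genes share. It stands in front of 3 effectors and a chemokine called negative (IFIT1, IFIT3, HERC5, CXCL10) and of IFITM1, the 1 effector called positive. Sequences are from RefSeq (GRCh38.p14), 5′ to 3′ on the strand of the gene, and capitals mark matches to the motif GAAANNGAAA on either strand.
IFIT1 (chr10:89392373-89392622, plus strand): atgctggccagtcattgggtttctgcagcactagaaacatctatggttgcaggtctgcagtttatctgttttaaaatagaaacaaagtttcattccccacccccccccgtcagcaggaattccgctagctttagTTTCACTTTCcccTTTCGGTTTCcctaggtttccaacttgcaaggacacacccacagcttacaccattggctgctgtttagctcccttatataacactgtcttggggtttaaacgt
IFIT3 (chr10:89327747-89327996, plus strand): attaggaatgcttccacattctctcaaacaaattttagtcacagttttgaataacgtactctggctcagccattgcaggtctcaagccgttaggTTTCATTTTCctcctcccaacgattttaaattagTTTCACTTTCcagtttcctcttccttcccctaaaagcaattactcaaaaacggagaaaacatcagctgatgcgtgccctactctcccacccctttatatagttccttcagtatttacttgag
HERC5 (chr4:88456869-88457118, plus strand): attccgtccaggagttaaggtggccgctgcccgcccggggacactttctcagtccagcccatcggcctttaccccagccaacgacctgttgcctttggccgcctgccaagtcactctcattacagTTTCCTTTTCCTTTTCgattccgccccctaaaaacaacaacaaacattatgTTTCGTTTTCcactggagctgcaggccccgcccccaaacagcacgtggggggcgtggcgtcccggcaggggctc
CXCL10 (chr4:76023498-76023747, minus strand): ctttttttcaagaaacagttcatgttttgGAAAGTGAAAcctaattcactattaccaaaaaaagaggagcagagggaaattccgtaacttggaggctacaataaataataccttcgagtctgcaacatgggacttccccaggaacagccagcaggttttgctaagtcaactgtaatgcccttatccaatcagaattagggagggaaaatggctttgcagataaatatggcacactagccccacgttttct
IFITM1 (chr11:313790-314039, plus strand): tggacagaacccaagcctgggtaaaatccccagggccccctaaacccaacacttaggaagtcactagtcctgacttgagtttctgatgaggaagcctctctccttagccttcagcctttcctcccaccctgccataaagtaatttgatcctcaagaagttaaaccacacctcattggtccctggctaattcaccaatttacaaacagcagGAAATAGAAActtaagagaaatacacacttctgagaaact
The motif stood in 1061 of 35116 promoters in the RefSeq table, or 3.02%, counting both strands and overlapping matches once per promoter. It stood in front of 18 of 25 tested effectors with a promoter in the table. Among these were 8 of 13 called negative, 9 of 11 not called, and IFITM1. In IFIT3 the matches began 156 and 122 bases before the start site, and in HERC5, where 2 matches overlap, 125, 119 and 74 bases before it.

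IFIT3, an antiviral protein that works with other IFIT proteins on foreign RNA, read 11.61, 11.61 and 11.67 in siTRIM24 and 11.39, 11.34 and 11.38 in siControl cells with DHT. With vehicle it read 12.09, 12.10 and 12.07 in siTRIM24 and 11.21, 11.08 and 11.11 in siControl cells. The knockdown arrays were above the control arrays in both states, by 0.26 with DHT and 0.95 with vehicle, and the interaction was -0.69 ± 0.05 (SE, n = 3 per group; adjusted p = 5.12e-05). HERC5, the ligase that attaches the ubiquitin-like protein ISG15, read 9.39, 9.40 and 9.42 in siTRIM24 and 9.18, 9.10 and 9.05 in siControl cells with DHT, and 9.84, 9.83 and 9.90 in siTRIM24 and 8.88, 8.93 and 8.84 in siControl cells with vehicle. Its arrays were ordered in the same way, and its interaction was -0.68 ± 0.06 (adjusted p = 7.56e-05). IFIT1 read 12.06, 12.07 and 12.05 in siTRIM24 and 11.96, 12 and 12 in siControl cells with DHT, and 12.45, 12.42 and 12.51 in siTRIM24 and 11.87, 11.86 and 11.79 in siControl cells with vehicle. Its knockdown difference was 0.07 with DHT and 0.62 with vehicle, an interaction of -0.55 ± 0.05 (adjusted p = 0.00013). RSAD2, the antiviral enzyme viperin, had differences of 0.21 with DHT and 0.82 with vehicle and an interaction of -0.61 ± 0.06.

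The further effectors called negative were IFIT2 at -0.71, OASL at -0.66, ISG20 at -0.50, IFI44 at -0.44, XAF1 and ISG15 at -0.33, OAS1 at -0.32, CMPK2 at -0.29, PARP9 and USP18 at -0.23, and DTX3L and HERC6 at -0.20. Some of these genes are close relatives, so that signal may be shared between their probe sets. The 15 that did not pass lay between -0.23 for IFIT5 and 0.34 for MX2. IFITM1, a membrane protein that blocks viral entry, was the exception among the called ones. It read 10.73, 10.68 and 10.73 in siTRIM24 and 10.46, 10.42 and 10.42 in siControl cells with DHT, and 10.92, 10.98 and 10.94 in siTRIM24 and 10.83, 10.81 and 10.88 in siControl cells with vehicle, so that its knockdown difference was larger with DHT. Its interaction of 0.17 ± 0.05 (adjusted p = 0.0365) lost its call when any 1 of 10 of the 12 arrays was left out, with adjusted p-values up to 0.0891. Without single arrays the count of negative effectors ranged from 12 to 17.

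Upstream of the effectors, the interferon ligands, 1 receptor chain and the RNA sensors also passed. IFNB1, the type I interferon beta, read 7.86, 7.87 and 7.83 in siTRIM24 and 7.80, 7.42 and 7.49 in siControl cells with DHT, and 7.84, 7.71 and 7.86 in siTRIM24 and 6.99, 7.12 and 7.08 in siControl cells with vehicle. Thus the siControl vehicle arrays were the lowest of the 4 groups. Its interaction was -0.45 ± 0.11 (adjusted p = 0.0284). IFNL1, a type III interferon, read 8.34, 8.40 and 8.34 in siTRIM24 and 8.23, 7.76 and 7.99 in siControl cells with DHT, and 8.63, 8.45 and 8.27 in siTRIM24 and 7.55, 7.59 and 7.37 in siControl cells with vehicle, an interaction of -0.58 ± 0.16 (adjusted p = 0.0393). Again the siControl vehicle arrays were lowest. Both ligands, named after their values were seen, lost their calls when any 1 of 6 arrays (IFNB1, adjusted p up to 0.0671) or of 9 arrays (IFNL1, adjusted p up to 0.089) was left out.

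Of 29 tested members of the list of interferon signalling and sensors 7 were negative and 1 was positive, with a median of -0.05. The called share was 27.6%, against 11.6% of all tested genes. IFIH1, the long double-stranded RNA sensor MDA5, read 8.92, 8.99 and 8.94 in siTRIM24 and 8.84, 8.67 and 8.96 in siControl cells with DHT, where the arrays overlapped. With vehicle it read 9.66, 9.57 and 9.48 in siTRIM24 and 8.84, 8.78 and 8.68 in siControl cells, and its interaction was -0.68 ± 0.10 (adjusted p = 0.00191). RIGI, the sensor of short RNA with a 5′ triphosphate, read 8.89, 8.76 and 8.85 in siTRIM24 and 9.13, 9.02 and 9.06 in siControl cells with DHT, and 9.44, 9.39 and 9.43 in siTRIM24 and 9.22, 9.19 and 9.15 in siControl cells with vehicle. Its knockdown arrays were below the control arrays with DHT and above them with vehicle, and the interaction was -0.47 ± 0.06 (adjusted p = 0.000664). The crossing rests on 1 of 3 RIGI probe sets. The knockdown differences of the others were 0.03 with DHT and 0.43 with vehicle, and 0.15 with DHT and 0.39 with vehicle, so that all 3 interactions were negative.

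JAK2, a kinase of cytokine receptors, was at -0.25 ± 0.05, IRF9, which partners the STAT factors at the ISRE, at -0.23 and EIF2AK2, the kinase PKR, at -0.22. JAK2 lost its call when its probe sets were averaged and in the fit of all 18 arrays. IFNAR1, a chain of the type I interferon receptor, was the positive member. It read 9.20, 9.20 and 9.21 in siTRIM24 and 9.58, 9.44 and 9.39 in siControl cells with DHT, and 8.56, 8.60 and 8.59 in siTRIM24 and 9.36, 9.35 and 9.33 in siControl cells with vehicle. Its knockdown arrays were below the control arrays in both states and by more with vehicle, at -0.27 with DHT and -0.76 with vehicle, for an interaction of 0.49 ± 0.06 (adjusted p = 0.000693). The count of 7 fell to 3 without siTRIM24 DHT array 1 or 3 or siTRIM24 vehicle array 1, and to 4 without siTRIM24 DHT array 2, siControl DHT array 1, siTRIM24 vehicle array 2 or siControl vehicle array 1.

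Chemokines that interferons and NF-kB induce were also called negative. Of 17 tested NF-kB targets and chemokines 7 were negative and 1 was positive, with a median of -0.23, and the count of 7 was the same without any single array. Called members made up 47.1% of this list, against 11.6% of all tested genes. CXCL8, the neutrophil attractant interleukin 8, read 8.23, 8.11 and 8.11 in siTRIM24 and 7.63, 7.38 and 7.61 in siControl cells with DHT, and 8.28, 8.23 and 8.30 in siTRIM24 and 6.82, 6.86 and 6.59 in siControl cells with vehicle. The DHT response was -0.12 in siTRIM24 and 0.79 in siControl cells, and the siControl vehicle arrays stood below those of the other 3 groups. Its interaction was -0.90 ± 0.11 (adjusted p = 0.000592). CXCL11 and CXCL10 attract T cells through the receptor CXCR3. CXCL11 read 9.33, 9.38 and 9.28 in siTRIM24 and 8.97, 8.79 and 8.97 in siControl cells with DHT, and 9.41, 9.38 and 9.33 in siTRIM24 and 8.07, 8.22 and 7.96 in siControl cells with vehicle, an interaction of -0.87 ± 0.09 (adjusted p = 0.000248).

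CXCL10, whose promoter is printed above, read 9.96, 10.05 and 10.09 in siTRIM24 and 9.91, 9.91 and 9.83 in siControl cells with DHT, and 9.89, 9.93 and 9.98 in siTRIM24 and 9.10, 9.0 and 9.11 in siControl cells with vehicle. Here too 3 groups lay close together and the siControl vehicle arrays lay lower. Its interaction was -0.71 ± 0.07 (adjusted p = 0.000138). CCL5, a chemokine for T cells and monocytes, had another pattern. It read 9.21, 9.20 and 9.23 in siTRIM24 and 8.95, 8.60 and 8.87 in siControl cells with DHT, and 10.09, 10.18 and 10.10 in siTRIM24 and 8.98, 9.08 and 9.04 in siControl cells with vehicle, so that the siTRIM24 vehicle arrays stood above the other 3 groups. The interaction was -0.68 ± 0.10 (adjusted p = 0.00185). TNFAIP3, a deubiquitinase that damps NF-kB, was at -0.57, the NF-kB subunit gene NFKB1 at -0.35 and NFKBIA, the NF-kB inhibitor, at -0.27. IL1B, a cytokine gene, was at 0.26 ± 0.07 (adjusted p = 0.0392) with group means of 5.82 in siTRIM24 and 5.89 in siControl cells with DHT, and 5.79 in siTRIM24 and 6.13 in siControl cells with vehicle, close to the low end of the values, and lost its call when any 1 of 8 arrays was left out (adjusted p up to 0.0908). Antigen processing genes, which interferons also raise, had 2 positive calls among 13 tested, HLA-C at 0.21 and TAP2 at 0.19. None was called negative in limma (4 positive and 0 negative at an unadjusted p under 0.05). The called share of 15.4% was near the 11.6% of all tested genes.

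**Figure D2:**
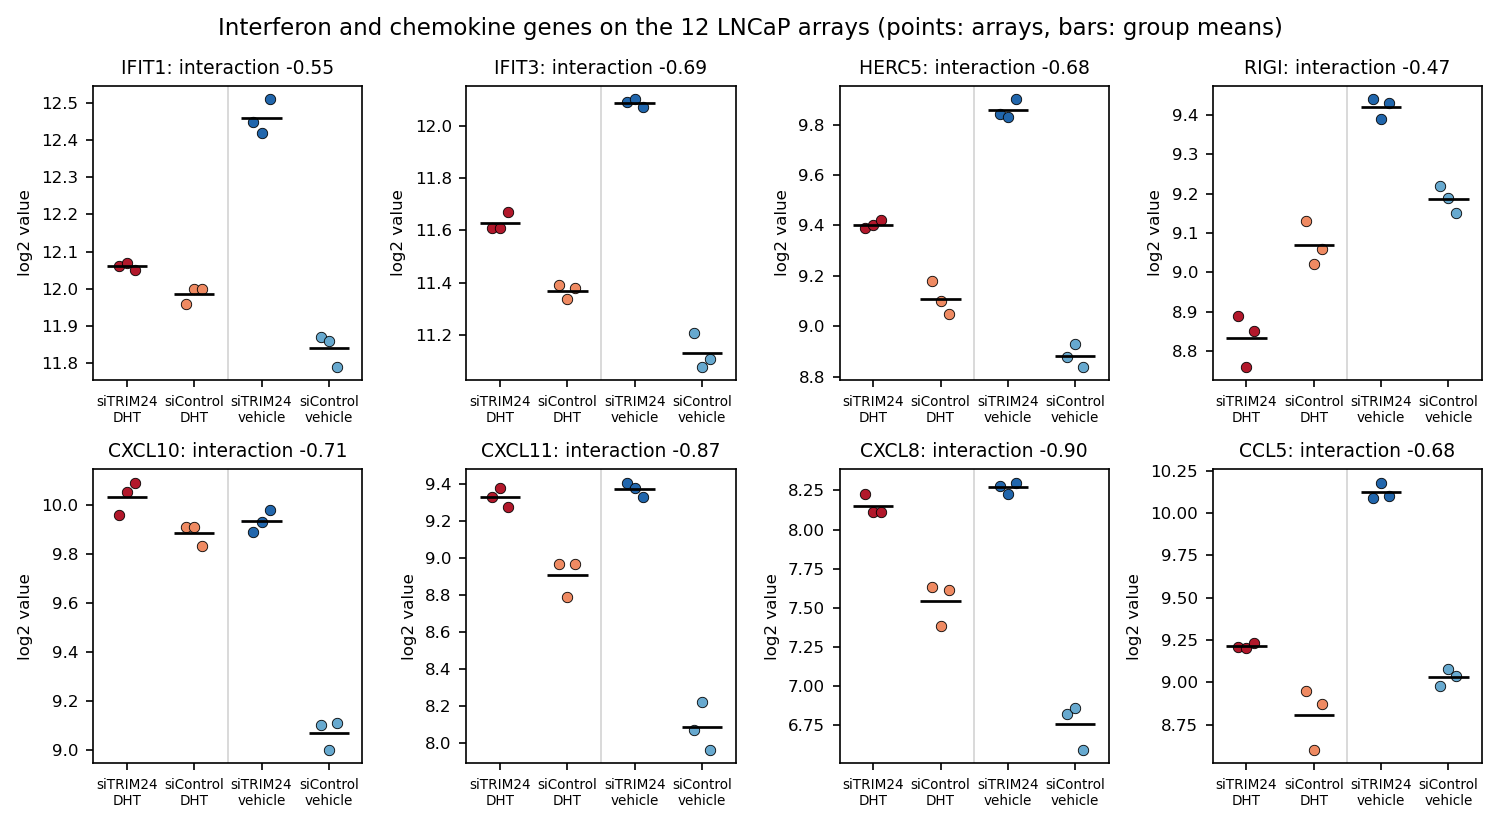
Log2 values of 8 interferon, RNA sensor and chemokine genes on the 12 LNCaP arrays (points) with group means (bars), from left to right siTRIM24 DHT, siControl DHT, siTRIM24 vehicle and siControl vehicle. The gap between siTRIM24 and siControl is wider with vehicle than with DHT in IFIT1, IFIT3, HERC5, CXCL10, CXCL11, CXCL8 and CCL5, and changes direction in RIGI by the probe set shown.

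Genes of the hypoxia response were called in the positive direction. These genes carry binding sites for the hypoxia-inducible factors and serve glucose use, blood vessel growth and collagen maturation. Of 18 tested hypoxia targets 10 were called positive and none negative in limma (13 and 0 at an unadjusted p under 0.05), with a median of 0.21. The positive share was 55.6%, against 5.63% of all tested genes. P4HA1, a catalytic subunit of the collagen prolyl hydroxylase, read 12.20, 12.24 and 12.23 in siTRIM24 and 11.57, 11.51 and 11.52 in siControl cells with DHT, and 11.77, 11.64 and 11.67 in siTRIM24 and 11.53, 11.53 and 11.47 in siControl cells with vehicle. The siTRIM24 DHT arrays stood above the other 3 groups, and the interaction was 0.50 ± 0.05 (adjusted p = 0.000298). P4HA2, its relative, had knockdown differences of 0.55 with DHT and 0.32 with vehicle and an interaction of 0.23 ± 0.04 (adjusted p = 0.00472). Averaged over its 3 probe sets it was at 0.08 (adjusted p = 0.388).

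LOX, which cross-links collagen, was at 0.71, PDK1, which diverts pyruvate from mitochondria, at 0.46 and VEGFA, the vascular growth factor, at 0.32. In ERO1A and DDIT4 the knockdown arrays crossed the control arrays. ERO1A, the oxidase of disulfide bond formation, read 9.67, 9.61 and 9.66 in siTRIM24 and 9.59, 9.50 and 9.60 in siControl cells with DHT, and 9.22, 9.16 and 9.20 in siTRIM24 and 9.37, 9.44 and 9.42 in siControl cells with vehicle (interaction 0.30 ± 0.05; adjusted p = 0.00565). Its most variable probe set had the same interaction (adjusted p = 0.072) with knockdown differences of -0.68 with DHT and -0.98 with vehicle, so the crossing depends on the probe set. DDIT4, an inhibitor of mTORC1, had differences of 0.21 with DHT and -0.06 with vehicle (interaction 0.27 ± 0.05; adjusted p = 0.00477). ANKRD37, KDM3A and BNIP3 were at 0.21, 0.20 and 0.17. In a fit with the 3′ to 5′ covariate 6 of the 18 were called positive.

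Glycolysis genes were called positive in 6 of 20 tested members and negative in none in limma (9 and 0 at an unadjusted p under 0.05), with a median of 0.12. This positive share was 30%, against 5.63% of all tested genes. SLC2A1, the glucose transporter GLUT1, read 8.94, 8.94 and 8.99 in siTRIM24 and 8.81, 8.79 and 8.75 in siControl cells with DHT, and 8.11, 7.85 and 8.08 in siTRIM24 and 8.57, 8.53 and 8.69 in siControl cells with vehicle. Its knockdown arrays were higher than control with DHT and lower with vehicle, and the interaction was 0.76 ± 0.09 (adjusted p = 0.000502). HK2, the hexokinase that traps glucose in the cell, read 10.29, 10.33 and 10.32 in siTRIM24 and 9.59, 9.55 and 9.62 in siControl cells with DHT, and 9.05, 8.98 and 8.94 in siTRIM24 and 8.83, 8.84 and 8.84 in siControl cells with vehicle. In HK2 the DHT response was 1.32 in siTRIM24 and 0.75 in siControl cells, an interaction of 0.57 ± 0.05 (adjusted p = 0.000112). Other HK2 probe sets had knockdown differences of 0.09 with DHT and -0.11 with vehicle, and of 0.07 and -0.17, with interactions of 0.19 and 0.24. The sign with vehicle thus depends on the probe set. LDHA, the lactate dehydrogenase subunit, read 13.20, 13.32 and 13.28 in siTRIM24 and 12.92, 12.89 and 12.92 in siControl cells with DHT, and 12.60, 12.60 and 12.57 in siTRIM24 and 12.73, 12.67 and 12.69 in siControl cells with vehicle. The signs again differed between hormone states, with an interaction of 0.47 ± 0.05 (adjusted p = 0.0003).

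PFKP, a phosphofructokinase, crossed in the same way, with differences of 0.32 with DHT and -0.21 with vehicle and an interaction of 0.52 ± 0.06 (adjusted p = 0.000598). PFKFB4, which sets the level of a phosphofructokinase activator, was at 0.40 and ENO1, an enolase, at 0.19. The middle enzymes of the pathway, among them ALDOA at 0.11, TPI1 at 0.11, GAPDH at 0.10 and PGK1 at 0.08, did not pass. PLOD2, a lysyl hydroxylase of collagen, was on neither list and had the second most positive interaction of all tested genes. It read 6.46, 6.23 and 6.08 in siTRIM24 and 4.87, 4.96 and 4.90 in siControl cells with DHT, and 4.19, 3.67 and 4.20 in siTRIM24 and 4.37, 4.23 and 4.24 in siControl cells with vehicle. Its signal exceeded 5.87 in siTRIM24 DHT cells alone, so the interaction of 1.61 ± 0.18 (adjusted p = 0.000367) rests on values compressed in the other 3 groups. A gene was tested if at least 3 arrays reached 5.87, so PLOD2 was tested only through the group where it was highest. The part of this selection in its interaction and rank was not tested. A second probe set gave 1.92, with knockdown differences of 2.08 with DHT and 0.16 with vehicle.

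**Figure D3:**
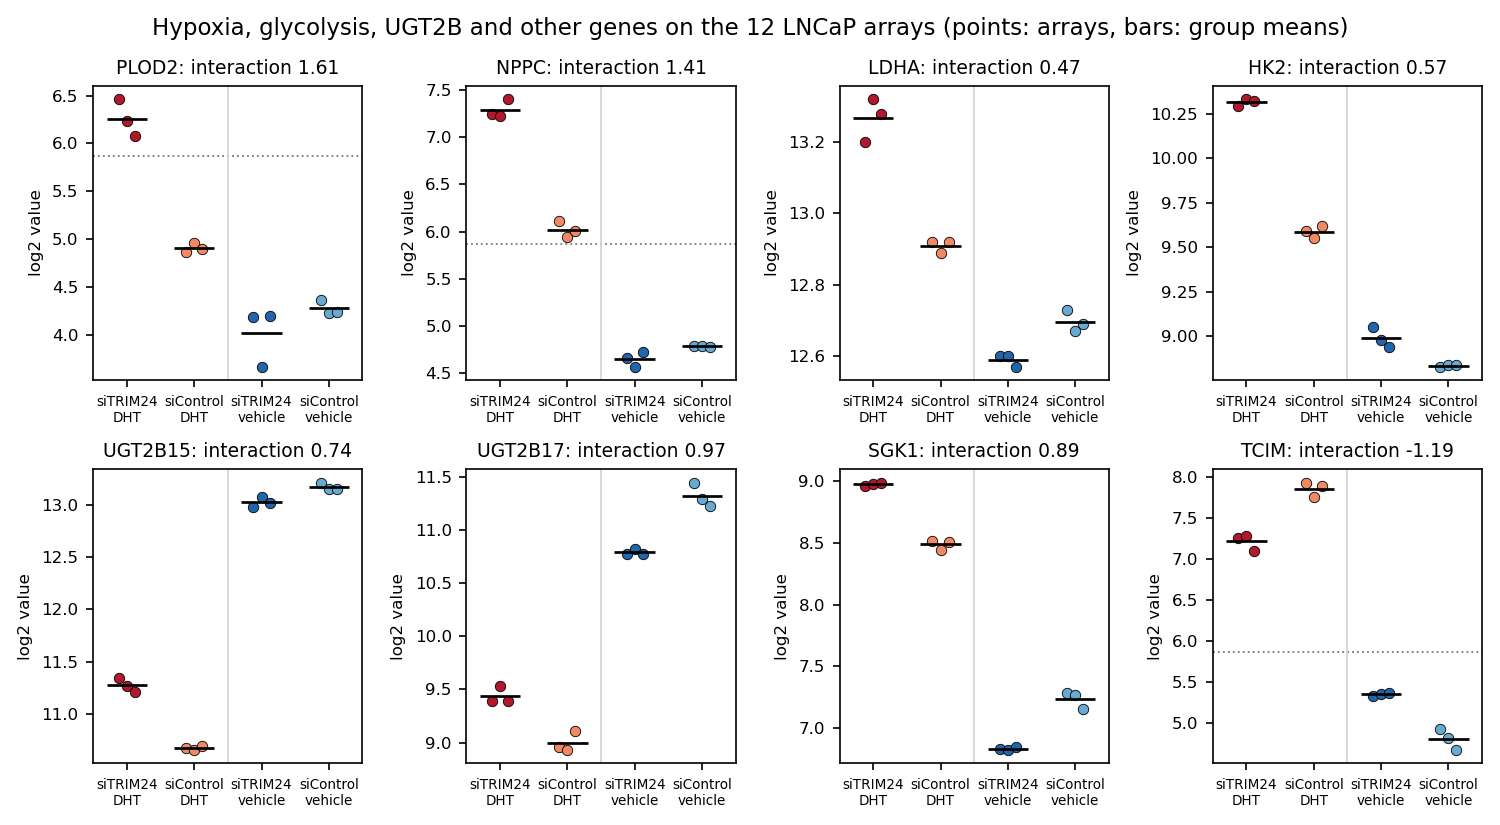
Log2 values of 8 further genes on the 12 LNCaP arrays (points) with group means (bars), from left to right siTRIM24 DHT, siControl DHT, siTRIM24 vehicle and siControl vehicle, with 5.87 as a dotted line where it falls inside the panel. By the probe sets shown, the knockdown arrays of PLOD2, NPPC, LDHA, UGT2B15, UGT2B17 and SGK1 lie above control with DHT and below it with vehicle. TCIM shows the reverse, and in HK2 the knockdown arrays lie above control in both states.

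Androgen-repressed genes had the highest share of calls of any list and the most positive median, 0.43, with 8 positive and 1 negative of 13 tested. That share was 69.2%, against 11.6% of all tested genes. UGT2B15, UGT2B17 and UGT2B28 are related enzymes that attach glucuronic acid to androgens, and their probe sets can share signal. UGT2B17 read 9.39, 9.53 and 9.39 in siTRIM24 and 8.96, 8.93 and 9.11 in siControl cells with DHT, and 10.78, 10.82 and 10.78 in siTRIM24 and 11.45, 11.30 and 11.23 in siControl cells with vehicle. The DHT response was -1.36 in siTRIM24 and -2.33 in siControl cells, so repression by DHT was smaller after knockdown. The interaction was 0.97 ± 0.09 (adjusted p = 0.000143).

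UGT2B15 read 11.35, 11.27 and 11.21 in siTRIM24 and 10.68, 10.66 and 10.70 in siControl cells with DHT, and 12.98, 13.07 and 13.02 in siTRIM24 and 13.21, 13.15 and 13.15 in siControl cells with vehicle. Its DHT response was -1.75 in siTRIM24 and -2.49 in siControl cells, and the interaction was 0.74 ± 0.06 (adjusted p = 4.91e-05). UGT2B28 was not lower with DHT here. It read 9.43, 9.27 and 9.33 in siTRIM24 and 8.77, 8.67 and 8.78 in siControl cells with DHT, and 8.49, 8.51 and 8.39 in siTRIM24 and 8.57, 8.67 and 8.62 in siControl cells with vehicle, an interaction of 0.76 ± 0.07 (adjusted p = 0.000158). In all 3 enzymes the knockdown arrays lay above control with DHT and below it with vehicle.

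ACKR3, a scavenging receptor for the chemokine CXCL12, had the same sign of knockdown difference in both states. It read 12.99, 12.91 and 12.96 in siTRIM24 and 12.11, 12.08 and 12.15 in siControl cells with DHT, and 13.45, 13.40 and 13.46 in siTRIM24 and 13.17, 13.14 and 13.05 in siControl cells with vehicle, an interaction of 0.52 ± 0.06 (adjusted p = 0.000275). Its most variable probe set gave 0.25 (adjusted p = 0.0615). CAMK2N1, an inhibitor of CaM kinase II, was at 0.66, FOLH1, prostate-specific membrane antigen, at 0.54, OPRK1, the kappa opioid receptor, at 0.43 and BCHE, butyrylcholinesterase, at 0.34. PEG3, an imprinted zinc finger gene, went the other way. It read 8.56, 8.68 and 8.59 in siTRIM24 and 9.21, 9.20 and 9.21 in siControl cells with DHT, and 11.30, 11.30 and 11.28 in siTRIM24 and 11.44, 11.48 and 11.45 in siControl cells with vehicle, so that the DHT response was -2.68 in siTRIM24 and -2.25 in siControl cells. The interaction was -0.43 ± 0.05 (adjusted p = 0.000469), with an adjusted p of 0.104 in the fit of all 18 arrays and the opposite sign on linear intensities.

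Androgen-induced genes split in both directions, with 10 positive and 5 negative of 32 tested and a median of 0.07. Calls made up 46.9% of the list, against 11.6% of all tested genes. MAF, a bZIP transcription factor, read 11.59, 11.47 and 11.50 in siTRIM24 and 11.34, 11.26 and 11.34 in siControl cells with DHT, and 7.79, 7.83 and 7.85 in siTRIM24 and 8.71, 8.75 and 8.52 in siControl cells with vehicle. Its DHT response was 3.70 in siTRIM24 and 2.65 in siControl cells, an interaction of 1.04 ± 0.08 (adjusted p = 4.08e-05). ORM1, an acute phase plasma protein, read 9.39, 9.39 and 9.42 in siTRIM24 and 8.49, 8.51 and 8.52 in siControl cells with DHT, and 4.96, 4.85 and 4.68 in siTRIM24 and 5.02, 4.76 and 4.99 in siControl cells with vehicle. The arrays separated with DHT and overlapped, at the low end, with vehicle (interaction 0.99 ± 0.10; adjusted p = 0.00024). SGK1, a kinase that glucocorticoids also induce, read 8.96, 8.98 and 8.99 in siTRIM24 and 8.52, 8.44 and 8.51 in siControl cells with DHT, and 6.83, 6.82 and 6.84 in siTRIM24 and 7.28, 7.27 and 7.15 in siControl cells with vehicle. Knockdown arrays were above control with DHT and below it with vehicle, and the interaction was 0.89 ± 0.06 (adjusted p = 1.76e-05).

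KLK3 read 14.33, 14.34 and 14.32 in siTRIM24 and 14.36, 14.40 and 14.39 in siControl cells with DHT, and 8.39, 8.31 and 8.45 in siTRIM24 and 8.86, 8.89 and 8.89 in siControl cells with vehicle. The knockdown arrays were lower in both states, with differences of -0.05 with DHT and -0.50 with vehicle. The interaction of 0.44 ± 0.05 (adjusted p = 0.000469) is thus the smaller difference with DHT, where the values lay close to the highest value of any of these arrays, 14.8, and can be compressed. KLK2, a kallikrein related to KLK3, read 10.97, 11.03 and 10.98 in siTRIM24 and 11.69, 11.62 and 11.55 in siControl cells with DHT, and 4.92, 4.51 and 4.67 in siTRIM24 and 4.82, 4.70 and 4.66 in siControl cells with vehicle. With vehicle it was at the low end, where the arrays overlapped and a difference would be compressed. Its interaction was -0.60 ± 0.12 (adjusted p = 0.00981), and KLK2 was named after its values were seen.

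ZBTB10, a zinc finger gene, read 10.56, 10.41 and 10.37 in siTRIM24 and 10.78, 10.75 and 10.94 in siControl cells with DHT, and 8.91, 8.91 and 8.88 in siTRIM24 and 8.54, 8.59 and 8.30 in siControl cells with vehicle. It crossed the other way from MAF and SGK1, and its DHT response was 1.55 in siTRIM24 and 2.34 in siControl cells (interaction -0.80 ± 0.11; adjusted p = 0.00103). HPGD, which degrades prostaglandins, was at -0.65, EAF2, a partner of the elongation factor ELL, at -0.60 and TPD52 at -0.22. GNMT, a methyltransferase, was at 0.38, the protease gene TMPRSS2 at 0.33, FKBP5, a chaperone partner of steroid receptors, at 0.29, the cation channel TRPM8 at 0.23 and CREB3L4, a membrane-bound transcription factor, at 0.21. SLC45A3, the prostate antigen prostein, named after its values were seen, was at 0.70 ± 0.09 by its brighter probe set and at -0.67 by the other, with a mean of 0.02 (adjusted p = 0.921), so its sign is uncertain.

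The sign of an interaction in strongly induced genes depends on the scale. On linear intensities KLK3 and SLC45A3 had a negative interaction, the median of the list was negative, and 13 of its members were called negative, against 5 on the log2 scale. The androgen receptor gene itself was not analysed here. Of 14 tested cofactors and pioneer factors of the receptor 2 were called, or 14.3%, near the 11.6% of all tested genes. GATA2 was at -0.27 ± 0.05 (adjusted p = 0.00431) and GRHL2 at 0.20 ± 0.06 (adjusted p = 0.0365). GATA2, a factor that opens chromatin for the receptor, had knockdown differences of -0.14 with DHT and 0.13 with vehicle, with arrays on opposite sides of control, and averaging its probe sets gave an adjusted p of 0.0893. GRHL2, an epithelial transcription factor, lost its call when any 1 of 9 arrays was left out (adjusted p up to 0.0859) and was negative on linear intensities. FOXA1 at -0.14, HOXB13 at 0.17, NCOA1 at 0.07, NCOA2 at -0.09, EP300 at -0.08 and MED1 at -0.10 did not pass.

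Most cell cycle genes were not called, and those that were had a negative interaction. Among 30 tested G2/M and mitosis genes 7 were called negative, 23.3% against 5.95% of all tested genes. None was called positive in limma (13 negative and 0 positive at an unadjusted p under 0.05), and the median was -0.17. Of the 30 genes 10 had a group mean below 5.87, where differences are compressed. Such a gene could pass the low-value filter by its brightest group alone. The part of this selection in the negative share was not tested. All group means of UBE2C, PRC1, NUSAP1 and TOP2A were above 5.87. UBE2C, which conjugates ubiquitin at mitotic exit, read 7.48, 7.47 and 7.48 in siTRIM24 and 8.08, 8.05 and 8.02 in siControl cells with DHT, and 7.28, 7.41 and 7.39 in siTRIM24 and 7.58, 7.61 and 7.58 in siControl cells with vehicle. The siControl DHT arrays were the highest group, and the DHT response was 0.12 in siTRIM24 and 0.46 in siControl cells (interaction -0.34 ± 0.05; adjusted p = 0.00213). PRC1, a bundling protein of the central spindle, read 6.95, 6.99 and 7.07 in siTRIM24 and 7.83, 7.64 and 7.82 in siControl cells with DHT, and 7.02, 7.07 and 7.04 in siTRIM24 and 7.50, 7.38 and 7.39 in siControl cells with vehicle. Its DHT response was -0.04 in siTRIM24 and 0.34 in siControl cells (interaction -0.38 ± 0.08; adjusted p = 0.0117).

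The spindle gene NUSAP1 was at -0.33 ± 0.06 (adjusted p = 0.00795) and TOP2A, the topoisomerase of dividing cells, at -0.40 ± 0.09 (adjusted p = 0.0172). DLGAP5 was at -0.44, BUB1B, a spindle checkpoint kinase, at -0.37 and KIF20A, a kinesin of cytokinesis, at -0.24. CCNB1 at 0.07, MKI67 at 0.03 and TPX2 at 0.03 did not pass. The count of 7 was 3 with the 3′ to 5′ covariate and 4 without the first siControl vehicle array. In bulk RNA fewer cycling cells and less RNA per cell cannot be told apart.

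Among 30 tested G1/S and DNA replication genes 6 were called negative and none positive in limma (11 and 1 at an unadjusted p under 0.05), with a median of -0.12. The negative share was 20%, against 5.95% of all tested genes. RRM2, a subunit of ribonucleotide reductase, read 7.93, 7.93 and 8.0 in siTRIM24 and 8.56, 8.36 and 8.57 in siControl cells with DHT, and 7.19, 7.11 and 7.13 in siTRIM24 and 7.25, 7.20 and 7.12 in siControl cells with vehicle. By this probe set its arrays separated with DHT and overlapped with vehicle, and the interaction was -0.50 ± 0.08 (adjusted p = 0.00294). A second probe set had knockdown differences of -0.83 with DHT and -0.56 with vehicle and an interaction of -0.26, so the lack of a vehicle difference depends on the probe set. ORC6, of the origin recognition complex, read 8.37, 8.24 and 8.40 in siTRIM24 and 8.45, 8.36 and 8.43 in siControl cells with DHT, and 8.25, 8.23 and 8.15 in siTRIM24 and 7.83, 7.84 and 7.61 in siControl cells with vehicle, so it overlapped with DHT and was above control with vehicle (interaction -0.52 ± 0.09; adjusted p = 0.00426). UHRF1, which maintains DNA methylation, was at -0.35 ± 0.07, FEN1, the flap endonuclease, at -0.27 ± 0.07, the helicase subunit MCM2 at -0.22 and TYMS, the thymidylate synthase, at -0.19. The count of 6 was 3 without siTRIM24 DHT array 2, siControl DHT array 1 or 3, or siTRIM24 vehicle array 1. FEN1 lost its call when any 1 of 8 arrays was left out (adjusted p up to 0.0663), and UHRF1 lost its call in the fit of all 18 arrays.

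Genes of cholesterol and fatty acid synthesis were called in both directions, with 4 positive and 3 negative of 25 tested and a median of 0.09. Together 28% of the list was called, against 11.6% of all tested genes. HMGCS1, which makes HMG-CoA at the entry to the cholesterol pathway, read 9.88, 9.79 and 9.84 in siTRIM24 and 9.83, 9.62 and 9.77 in siControl cells with DHT, where the arrays overlapped. With vehicle it read 9.31, 9.26 and 9.29 in siTRIM24 and 8.40, 8.39 and 8.19 in siControl cells, so the interaction was -0.86 ± 0.09 (adjusted p = 0.000238). A second HMGCS1 probe set had knockdown differences of -0.31 with DHT and 0.10 with vehicle and an interaction of -0.41. The sign of the interaction was thus shared, while its form depends on the probe set. IDI1, an isomerase of the same pathway, read 10.90, 10.86 and 10.87 in siTRIM24 and 11.12, 11.09 and 11.03 in siControl cells with DHT, and 10.44, 10.43 and 10.46 in siTRIM24 and 10.32, 10.33 and 10.37 in siControl cells with vehicle (interaction -0.31 ± 0.05; adjusted p = 0.00262). It lay below control with DHT and above it with vehicle. STARD4, a carrier of cholesterol, was at -0.40.

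SCD, the desaturase that makes oleate, read 12.68, 12.64 and 12.67 in siTRIM24 and 13.13, 13.12 and 13.11 in siControl cells with DHT, and 12.19, 12.25 and 12.23 in siTRIM24 and 13.12, 13.14 and 13.12 in siControl cells with vehicle. The arrays of the 2 siControl groups overlapped by this probe set, and the DHT response was 0.44 in siTRIM24 and -0.01 in siControl cells (interaction 0.45 ± 0.04; adjusted p = 0.000146). Its other 3 probe sets had knockdown differences of 0.06, 0.15 and 0.19 with DHT and interactions of 0.30, 0.18 and 0.26, and the mean over probe sets was 0.30. SREBF1, a master regulator of fatty acid synthesis, was at 0.29 ± 0.05 (adjusted p = 0.00442), FASN, the fatty acid synthase, at 0.25 and SQLE, the squalene epoxidase of the cholesterol branch, at 0.19. Averaging the SREBF1 probe sets gave 0.19, which did not pass.

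Amino acid transporters were called positive in 6 of 16 tested members and negative in none in limma (8 and 2 at an unadjusted p under 0.05), with a median of 0.12. Their positive share was 37.5%, against 5.63% of all tested genes. SLC7A2, a carrier of arginine and lysine, read 9.35, 9.37 and 9.41 in siTRIM24 and 7.39, 7.43 and 7.51 in siControl cells with DHT, and 9.36, 9.28 and 9.31 in siTRIM24 and 7.76, 7.79 and 7.81 in siControl cells with vehicle. The knockdown arrays were far above control in both states and the siControl DHT arrays were lowest (interaction 0.41 ± 0.06; adjusted p = 0.00153). SLC38A4, a carrier of neutral amino acids, read 9.31, 9.32 and 9.18 in siTRIM24 and 8.63, 8.82 and 8.96 in siControl cells with DHT, and between 2.64 and 2.85 in siTRIM24 and between 2.73 and 2.82 in siControl cells with vehicle, at the low end (interaction 0.52 ± 0.11; adjusted p = 0.0137). SLC6A6 was at 0.35, SLC38A1 and SLC7A1 at 0.25 and SLC1A1 at 0.18. None of the list was called when the probe sets of a gene were averaged, and 3 were called with the 3′ to 5′ covariate.

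In polyamine metabolism the enzyme that starts the pathway and the spermine synthase differed in sign. ODC1, the ornithine decarboxylase, read 13.20, 13.21 and 13.20 in siTRIM24 and 13.18, 13.15 and 13.16 in siControl cells with DHT, and 12.29, 12.32 and 12.29 in siTRIM24 and 12.70, 12.70 and 12.76 in siControl cells with vehicle (interaction 0.46 ± 0.04; adjusted p = 0.000138). SMS, the spermine synthase, read 12.09, 11.92 and 12 in siTRIM24 and 12.19, 12.12 and 12.17 in siControl cells with DHT, and 10.58, 10.53 and 10.52 in siTRIM24 and 10.41, 10.43 and 10.31 in siControl cells with vehicle (interaction -0.32 ± 0.07; adjusted p = 0.0137). ODC1 was above control with DHT, at a difference of only 0.04, and below it with vehicle, at -0.42, and SMS showed the reverse order. SMS lost its call with the 3′ to 5′ covariate. AZIN1 was at -0.21 and AMD1, which makes the aminopropyl donor, at -0.20. Of 13 tested 1 was positive and 3 were negative, or 30.8% against 11.6% of all tested genes, from few genes.

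Over all genes 11.6% were called, and of the remaining lists 19.0% of p53 targets, 16.7% of ER folding, 22.2% of ATF4, 11.1% of MYC and 36.4% of retinoic acid genes were, from few genes each. Of 21 p53 targets 2 were positive and 2 negative (median -0.05), with TP53INP1, a stress-induced autophagy gene, at -0.48 ± 0.06 (adjusted p = 0.000552) and SESN1, a stress-induced inhibitor of mTORC1, at 0.30 ± 0.04 (adjusted p = 0.00138). Averaging its probe sets put TP53INP1 at -0.12 (adjusted p = 0.448), and it was positive on linear intensities. The p53 targets CDKN1A at -0.12 and MDM2 at -0.15 did not pass. Of 24 ER folding and unfolded protein response genes 4 were called positive and none negative in limma (10 and 1 at an unadjusted p under 0.05; median 0.09), led by SPCS3, a signal peptidase subunit, at 0.54 ± 0.06 (adjusted p = 0.000389), which was negative on linear intensities. The chaperone gene HSPA5 was at -0.02. Of 18 genes of ATF4 and the amino acid response 1 was positive and 3 were negative (median 0.00), of 18 MYC and ribosome biogenesis genes 2 were positive and 0 negative (6 and 0 at an unadjusted p under 0.05; median 0.05), and of 11 retinoic acid targets 3 were positive and 1 was negative (median 0.06). TGM2, a transglutaminase that retinoids induce, was at 0.35 and RXRA, a retinoid receptor, at -0.21.

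**Figure D4:**
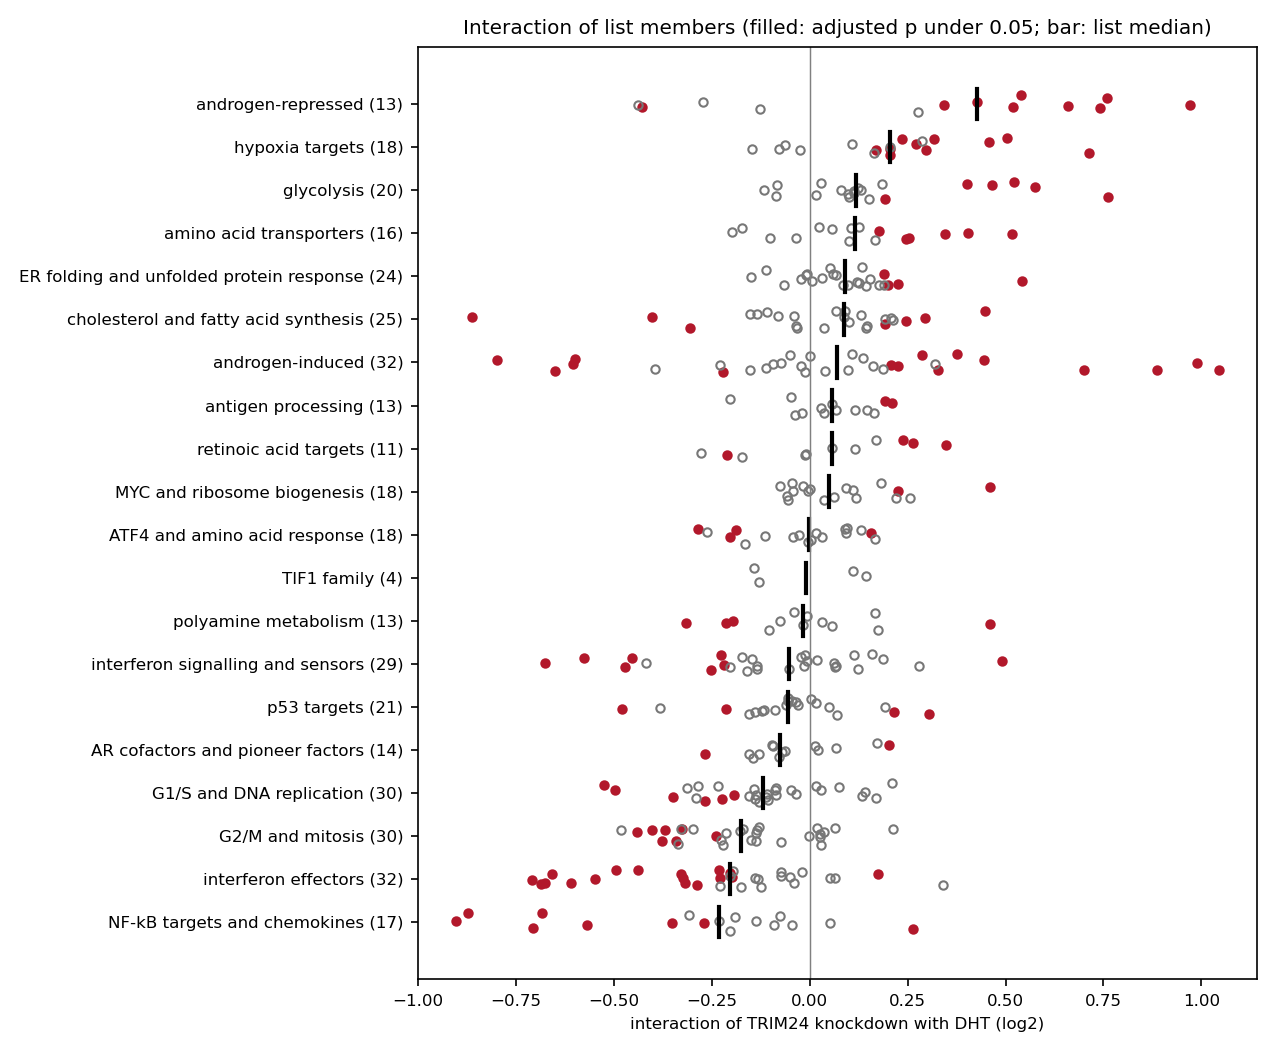
Interaction (x axis, log2) of each tested member of the 20 gene lists, with the number tested in brackets, filled where the adjusted p was under 0.05, and a bar at the list's median. Medians run from 0.43 for androgen-repressed genes to -0.23 for NF-kB targets and chemokines, and the androgen-induced genes spread from -0.80 to 1.04.

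The largest positive interaction was that of CP, the copper-carrying plasma protein ceruloplasmin. It read 5.51, 5.27 and 5.38 in siTRIM24 and 5.25, 5.28 and 5.41 in siControl cells with DHT, and 6.36, 6.08 and 5.93 in siTRIM24 and 7.82, 7.57 and 7.68 in siControl cells with vehicle. The arrays overlapped with DHT, at values below 5.87, and separated with vehicle, and the interaction was 1.63 ± 0.14 (adjusted p = 0.000112). NPPC, the precursor of C-type natriuretic peptide, read 7.25, 7.22 and 7.40 in siTRIM24 and 6.11, 5.94 and 6.01 in siControl cells with DHT, and 4.66, 4.57 and 4.73 in siTRIM24 and 4.79, 4.79 and 4.78 in siControl cells with vehicle (interaction 1.41 ± 0.08; adjusted p = 1.5e-05). Its difference was nearly all with DHT, but its vehicle values lay below 5.87, where a difference would be compressed. TMPRSS11E, a transmembrane serine protease, read 6.83, 6.72 and 6.63 in siTRIM24 and 6.56, 6.58 and 6.55 in siControl cells with DHT, and 5.20, 5.15 and 5.18 in siTRIM24 and 6.32, 6.16 and 6.24 in siControl cells with vehicle (interaction 1.23 ± 0.07; adjusted p = 1.5e-05). There the difference was nearly all with vehicle.

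STYXL2, a phosphatase-like protein, had knockdown differences of 1.31 with DHT and 0.16 with vehicle (interaction 1.15 ± 0.13), with siControl means below 5.87 in both states, at 5.81 and 5.74. TMCC3, a coiled-coil protein of the ER membrane, had differences of 0.98 and 0.09 (0.89 ± 0.17), with its vehicle values at the low end. AMOTL1, an angiomotin relative that binds YAP, had 0.01 with DHT and -0.89 with vehicle (0.90 ± 0.10; its most variable probe set 0.50, adjusted p = 0.0748). STK17B, a kinase of the death-associated family, read 8.86, 8.74 and 9.06 in siTRIM24 and 8.28, 8.19 and 8.32 in siControl cells with DHT, and 6.08, 6.09 and 5.83 in siTRIM24 and 6.31, 6.39 and 6.11 in siControl cells with vehicle. It was above control with DHT and below it with vehicle, and its interaction of 0.89 ± 0.14 (adjusted p = 0.00216) became 0.56 (adjusted p = 0.0727) with its most variable probe set.

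At the negative end TCIM, a small regulator of Wnt signalling, read 7.26, 7.28 and 7.10 in siTRIM24 and 7.93, 7.75 and 7.89 in siControl cells with DHT, and 5.33, 5.35 and 5.36 in siTRIM24 and 4.93, 4.82 and 4.67 in siControl cells with vehicle. The knockdown arrays were below control with DHT and above it with vehicle, an interaction of -1.19 ± 0.10 (adjusted p = 6.93e-05). FRY, a large scaffold protein of mitosis and cell shape, read 7.13, 7.09 and 7.12 in siTRIM24 and 7.27, 7.39 and 7.25 in siControl cells with DHT, and 8.21, 8.15 and 8.20 in siTRIM24 and 7.36, 7.45 and 7.27 in siControl cells with vehicle (interaction -1.02 ± 0.07; adjusted p = 2.65e-05). The siTRIM24 vehicle arrays stood above the other 3 groups. CAMK2D, a subunit of CaM kinase II, showed the other form. It read 8.68, 8.71 and 8.73 in siTRIM24 and 9.68, 9.56 and 9.74 in siControl cells with DHT, and 8.47, 8.40 and 8.43 in siTRIM24 and 8.41, 8.52 and 8.40 in siControl cells with vehicle. The siControl DHT arrays stood far above the others and the siTRIM24 DHT arrays slightly above both vehicle groups, with a DHT response of 0.27 in siTRIM24 and 1.22 in siControl cells (interaction -0.95 ± 0.07; adjusted p = 3.38e-05).

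LAT2, a membrane adaptor of immune receptor signalling, had knockdown differences of -1.11 with DHT and -0.01 with vehicle (interaction -1.10 ± 0.18; adjusted p = 0.00338), and its second probe set was at 0.01. Its vehicle means of 5.27 in siTRIM24 and 5.28 in siControl cells lay below 5.87, where a difference would be compressed. SMIM31, which encodes a small membrane protein, had differences of 0.11 with DHT and 1.17 with vehicle (interaction -1.07 ± 0.12). In SGTB, a co-chaperone, they were -0.18 and 0.74 (interaction -0.93 ± 0.10), and in UBE2QL1, a relative of ubiquitin-conjugating enzymes, -0.22 and 0.70 (interaction -0.92 ± 0.10), with a second, dim probe set at 0.07. NR3C2, the mineralocorticoid receptor, a steroid receptor related to the androgen receptor, read 7.36, 7.18 and 7.07 in siTRIM24 and 7.91, 7.89 and 7.70 in siControl cells with DHT, and 7.42, 7.36 and 7.31 in siTRIM24 and 7.14, 7.25 and 7.14 in siControl cells with vehicle (interaction -0.81 ± 0.11; adjusted p = 0.000772). DHT went with higher NR3C2 values in siControl cells, by 0.66, and not in siTRIM24 cells, at -0.16.

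**Figure D5:**
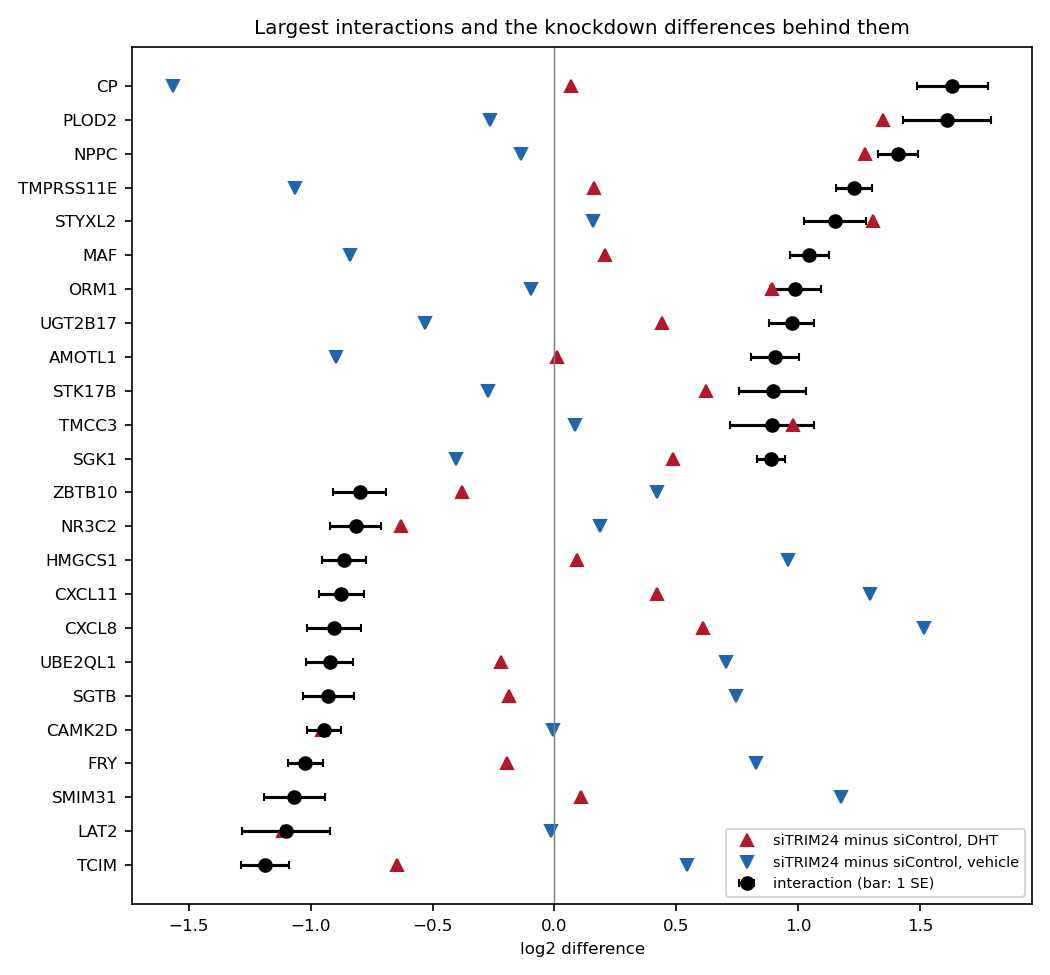
The 12 most positive and 12 most negative called interactions (black, bar 1 SE), with the siTRIM24 minus siControl log2 difference with DHT (red, upward triangles) and with vehicle (blue, downward triangles). CP, TMPRSS11E and AMOTL1 differ with vehicle and hardly with DHT, while NPPC, STYXL2, ORM1, CAMK2D and LAT2 differ with DHT and hardly with vehicle. The vehicle means of NPPC, ORM1 and LAT2, the siControl means of STYXL2 and the DHT means of CP lay below 5.87, where differences are compressed.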

How the data were processed

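Total RNA of LNCaP cells was measured on 1-colour Affymetrix arrays. The authors deposited log2 values. Per the submitters' processing notes they come from RMA, and its version is not given in the sources used here. RMA gives 1 value per probe set and draws arrays to a common distribution, so shifts common to most transcripts are hidden and low values are compressed. The table holds 54675 probe sets, 62 of them controls. The platform annotation, which can be old, names 1 gene for 41091, several for 1801 and none for 11721 of the rest, and probe sets with several genes name none here.

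For each of 19775 genes the brightest probe set, by its mean over the 12 arrays, stood for the gene. A gene was tested if at least 3 arrays reached 5.87, the table's median over these arrays, which left 13213 genes. limma 3.58.1 (R 4.3.3) fitted the 4 group means (8 residual degrees of freedom), and the interaction was tested with lmFit and eBayes, two-sided, with Benjamini-Hochberg adjustment over all 13213 genes. Genes with an adjusted p under 0.05 were called. Differences with DHT or with vehicle alone are given as values without a test. The fit was tested on simulated data.

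The 20 gene lists (468 genes, 395 tested) and the genes named were chosen with earlier results of these data known. The rule took TRIM24, the 12 most positive and 12 most negative called interactions and, per list, up to 4 called members with the smallest adjusted p plus the called member most opposed to the list's median. Further list members are given by their interaction alone. IFNB1, IFNL1, KLK2 and SLC45A3 fall outside the rule. Promoters are the 250 bases before each start in the RefSeq table (GRCh38.p14). The alternatives concerned the low-value filter, the probe set, the scaling, the arrays in the fit, the variance model, the scale, the threshold, the replicate number as a block, a 3′ to 5′ covariate and the omission of each array. With no scan dates in the sources used here, batches could not be tested.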

Additional observations from a re-analysis of the deposited data

Results flagged for a closer look

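The interaction is itself a test of whether the effect of knockdown differed between the 2 hormone states, and it passed in 1530 genes. Among the genes described above with their group values or differences, 25 were picked out by the order of their arrays. In these all 3 knockdown arrays lay on one side of all 3 control arrays with DHT and on the other side with vehicle. Of the 1530 called genes 250 did so, which is 1.89% of all tested genes. The genes described were nearly all chosen among called ones, so the 1530 are the nearer reference. A further 8 list members given by their interaction alone, XAF1, DTX3L, PFKFB4, TPD52, CREB3L4, HLA-C, SLC6A6 and UTP20, met the same criterion. The crossing is that of the probe set that stands for the gene, and no explanation was tested.

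Knockdown arrays above control with DHT and below it with vehicle were found in the hypoxia and glycolysis genes DDIT4 (interaction 0.27), ERO1A (0.30), LDHA (0.47), SLC2A1 (0.76) and PFKP (0.52) and in PLOD2 (1.61). They were found as well in the androgen-induced genes MAF (1.04) and SGK1 (0.89), the 3 glucuronosyltransferases UGT2B15 (0.74), UGT2B17 (0.97) and UGT2B28 (0.76), the polyamine enzyme ODC1 (0.46), and in NPPC (1.41), TMPRSS11E (1.23) and STK17B (0.89). PLOD2, NPPC and TMPRSS11E had group means below 5.87, and PLOD2 was tested only through its siTRIM24 DHT arrays. Some of the differences were small, such as 0.04 with DHT in ODC1 and -0.06 with vehicle in DDIT4. Another probe set had a mean difference of 1 sign in ERO1A (-0.68 with DHT and -0.98 with vehicle), PLOD2 (2.08 and 0.16), PFKP (-0.06 and -0.08) and UGT2B15 (-0.10 and -0.36).

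The reverse order, below control with DHT and above it with vehicle, was found in the RNA sensor RIGI (-0.47), in ZBTB10 (-0.80), IDI1 (-0.31), SMS (-0.32), GATA2 (-0.27) and the mineralocorticoid receptor NR3C2 (-0.81), and in TCIM (-1.19), FRY (-1.02), SGTB (-0.93) and UBE2QL1 (-0.92). TCIM and UBE2QL1 had group means below 5.87. Of 7 ZBTB10 probe sets 4 had this order of means. Other probe sets had mean differences of 1 sign in RIGI (0.03 with DHT and 0.43 with vehicle, and 0.15 and 0.39), SGTB (0.18 and 0.33), IDI1 (0.08 and 0.36, and 0.08 and 0.17), FRY (-0.46 and -0.08), GATA2 (-0.05 in both) and UBE2QL1 (0.16 and 0.09).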

How the results depend on the processing

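The count of called genes depended on the settings and the direction of the named genes mostly did not. Against 1530 calls (744 positive, 786 negative), the test of all 19775 genes gave 797 (420 and 377). There were 512 (279 and 233) at an adjusted p under 0.01, 164 (80 and 84) at a size of at least 0.5, and 879 (380 and 499) with the 3′ to 5′ covariate. With each array centred on its median 462 were positive, 39.9% of calls against 56.4% after quantile normalization. On linear intensities 2303 genes passed, 1274 of them negative. Without single arrays the total lay between 883 and 1559, with 465 to 676 positive and 407 to 891 negative. It was 950 and 990 without siTRIM24 DHT array 2 or 3 and 883 and 957 without siTRIM24 vehicle array 1 or 2. Of the 1530 genes, 1304 were called with the same sign in the fit of all 18 arrays, 1133 after centring, 1384 after quantile normalization and 784 with the covariate. When the probe sets of a gene were averaged, 920 of the 1440 that were then tested were called with the same sign.

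Among the 74 genes given with their group values or standard errors, none had the opposite sign under a setting run here except on linear intensities, where the interaction, in intensity units, was -624 for KLK3, -1523 for SLC45A3, 104 for PEG3, 448 for TP53INP1, -239.9 for SPCS3 and -87.1 for GRHL2, and the androgen-induced median was -23.8. The linear scale weights the brightest group, which differs from the log2 scale by construction. SLC45A3 also had a second probe set of opposite sign, at -0.67. Of the 74 genes 9 lost their call when probe sets were averaged and 7 with the covariate. The replicate number as a block gave 1151 calls (585 positive, 566 negative). Deviations of same-numbered arrays correlated at -0.32 to 0.20 over 18 pairs, with 3 above 0.1. Such deviations are taken from means of 3 arrays, so they cannot show whether the numbers mark shared cultures or batches. Genes with a group mean below 5.87 have compressed differences, and signal over background is not given in the deposited values.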

Other observations

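Members of the smaller lists that passed and were not described above are given here with their interaction alone. In the ATF4 and amino acid response, the stress-induced transcriptional regulator NUPR1 was at -0.29, the transcription factors ATF3 and CEBPB at -0.20 and -0.19, and SHMT2, a mitochondrial enzyme of serine metabolism, at 0.16, while ATF4 itself was at 0.00 and did not pass. Among ER folding genes the disulfide isomerases PDIA4 and PDIA6 were at 0.23 and 0.20 and SEC11C, a catalytic subunit of the signal peptidase complex, at 0.19. Among p53 targets the death receptor FAS was at 0.21 and the RNA-binding protein ZMAT3 at -0.21. Among retinoic acid targets the nuclear receptor corepressor NRIP1 was at 0.26 and DHRS3, which reduces retinal, at 0.24. UTP20, of ribosome assembly, was at 0.23, and MYC, at 0.18, did not pass. Of the luminal keratins KRT8 was called at 0.20 and KRT18, at 0.10, was not.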
